A study of Arabidopsis thaliana with 33 samples.

Results

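The levels of acetylated histone H3 (H3ac) and of RNA were described gene by gene in wild-type (WT) Arabidopsis thaliana seedlings. The WT H3ac chromatin immunoprecipitation (ChIP-seq) values were joined to the WT RNA-seq values by gene identifier, and 29344 of the 32833 listed genes were kept. These were the nuclear genes of at least 300 bp with an RNA value. Left out, in categories that overlap, were 285 genes of the plastid and mitochondrial genomes, 3197 nuclear genes under 300 bp, 10 genes with no RNA value and 2 genes, LHCB1.3 and NRPA2, whose RNA estimate had failed. The WT peak lists gave 24597 H3ac peaks of 24898 listed.

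The series held 33 samples of 5 genotypes, of which 6 are described here: 3 RNA-seq and 3 H3ac ChIP-seq samples of the wild type. Seedlings were grown untreated on 1/2 MS plates for 12 days, in long days that were warmer (24 °C, 16 h) than the nights (22 °C, 8 h). The mutants set beside the wild type in places were T-DNA insertion lines of hhp1 and hda6, the triple mutant of MBD1, MBD2 and MBD4 (mbd124) and the quadruple mutant sant1234-null, all grown alike, with 3 samples per assay. ChIP was made in WT, hda6 and sant1234-null only. Each table held 1 value per genotype, pooled over the replicates by the authors. No value therefore has a replicate spread, no difference between genes was tested, and correlations across genes are descriptions, since genes are not independent replicates. Nothing in the labels tells if the 3 samples of a group were grown apart.

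Acetyl groups are placed on lysines of the histone H3 tail by acetyltransferases and taken off by deacetylases such as HDA6. Acetylation weakens the hold of the tail on DNA and gives a landing site for proteins that read it, and it is known as a mark of the first part of transcribed genes. In plants it is set against silencing by Polycomb and by DNA methylation.

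H3ac is given as RPKM, reads per gene scaled by gene length and by the mapped reads, of which the 3 pooled WT libraries held 70098738. RNA is given as FPKM, the like measure for fragments of transcripts. The median gene held 1706 ChIP reads, for which an exact Poisson interval (95%) ran from 95.3% to 105% of the count. Such intervals cover counting error only. Seedlings mix many cell types, so fewer cells of a type and less H3ac or RNA per cell cannot be told apart in any value below.

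Genes with most and least H3ac are introduced here by the 250 bases before their start, read from the RefSeq genome TAIR10.1, whose gene positions equal those of the files in 32532 of 32548 nuclear genes matched. ERF4 and PYL4 carried some of the highest H3ac levels, each in a single-exon gene. TGG1, TGG2 and MT1C carried low H3ac and no peak but some of the most abundant RNAs. No other gene overlaps these windows. Capitals mark TATAAA, the core of the TATA box.

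ERF4 (chr3:5121053-5121302, plus strand): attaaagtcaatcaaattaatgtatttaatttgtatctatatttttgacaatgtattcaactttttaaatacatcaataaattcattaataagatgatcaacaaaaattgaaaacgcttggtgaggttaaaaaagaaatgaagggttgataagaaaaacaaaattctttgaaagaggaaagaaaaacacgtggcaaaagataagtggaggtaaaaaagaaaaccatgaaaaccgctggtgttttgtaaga
PYL4 (chr2:16049668-16049917, plus strand): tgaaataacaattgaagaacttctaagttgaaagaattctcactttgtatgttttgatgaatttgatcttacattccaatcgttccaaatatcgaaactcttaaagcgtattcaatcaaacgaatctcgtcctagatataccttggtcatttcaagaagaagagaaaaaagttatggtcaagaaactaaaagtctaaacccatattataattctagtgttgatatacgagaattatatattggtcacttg
TGG1 (chr5:9082385-9082634, minus strand): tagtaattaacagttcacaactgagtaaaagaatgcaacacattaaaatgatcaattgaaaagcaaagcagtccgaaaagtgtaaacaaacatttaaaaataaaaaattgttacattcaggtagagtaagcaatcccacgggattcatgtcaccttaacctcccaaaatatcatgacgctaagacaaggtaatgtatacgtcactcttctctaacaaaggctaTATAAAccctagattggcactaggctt
TGG2 (chr5:9072458-9072707, plus strand): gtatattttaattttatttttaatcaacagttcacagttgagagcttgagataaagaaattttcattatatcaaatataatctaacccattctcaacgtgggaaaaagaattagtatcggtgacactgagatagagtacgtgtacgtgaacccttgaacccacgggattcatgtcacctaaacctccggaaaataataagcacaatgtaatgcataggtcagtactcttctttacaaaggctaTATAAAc
MT1C (chr1:2341197-2341446, plus strand): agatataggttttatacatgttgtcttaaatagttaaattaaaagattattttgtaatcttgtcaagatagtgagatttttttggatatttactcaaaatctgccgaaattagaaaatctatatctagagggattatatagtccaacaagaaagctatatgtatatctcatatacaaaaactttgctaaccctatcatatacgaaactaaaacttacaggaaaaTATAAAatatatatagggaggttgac

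In these windows TATAAA stood on the gene strand in TGG1, TGG2 and MT1C, where it began 27, 7 and 26 bases before the start, and in neither ERF4 nor PYL4. Over whole classes the contrast was small. TATAAA on the gene strand lay within 50 to 16 bases before the start in 8.52% of all 29342 genes with a full window. The share was 7.66% of the 2858 highest-decile genes with a peak and 11.9% of the 2934 genes in the lowest decile. It was 10.9% (21 genes) of the 193 genes with low H3ac and abundant RNA, and 8.04% of all RNA-rich genes. The site II element TGGGCC (either strand, GGCCCA on the other), known from promoters of ribosomal protein genes, was in 3869 of all windows (13.19%). It was in 13.5% of the highest-decile windows, near the share of all, 5.52% of the lowest-decile ones and 49.8% of 253 RPL and RPS genes. By RNA, it was in 19.7% of RNA-rich windows and 5.82% of those of genes listed below 0.1 FPKM, which made up 56.3% of the lowest decile. Within RNA-rich genes it was in 18.4% at high H3ac and 13.5% at low H3ac. Whether these shares go with H3ac apart from RNA was not tested. The G-box CACGTG, which reads the same on both strands, was in 6.25% of all windows, 6.40% of the highest-decile ones and 3.89% of the lowest-decile ones. It was in 8.32% of RNA-rich windows and 3.58% of those of genes listed below 0.1 FPKM. Within RNA-rich genes it was in 8.47% at high H3ac and 8.81% at low H3ac. A match of letters is a description and not a bound site.

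Across the 29344 genes, H3ac spread over a narrower range than RNA. The median gene had 10.6 RPKM, the 10th percentile was 4.59 and the 90th 29.4, while 1% of genes lay under 0.874 and 1% above 75.9. The same percentiles were closer together in hda6 (6.38 and 24.2) and in sant1234-null (5.97 and 26.8). Protein-coding genes, 26984 in number, had a median of 10.8 RPKM. The 2124 long non-coding RNA genes had 8.75, and the 38 microRNA genes 4.61. The 5 chromosomes differed little, with medians between 10.4 and 10.8 RPKM.

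Median H3ac rose with RNA over the classes up to 300 FPKM and was level above. The 5616 genes listed at 0 FPKM had a median of 6.94 RPKM, genes of 3 to 10 FPKM 11.9, and genes of 10 to 30 FPKM 13.7. Above that it moved little, to 15.7 at 30 to 100 FPKM and 17.8 in the 322 genes above 300 FPKM. The RNA-rich genes, the highest decile of RNA (2935 genes of at least 47.6 FPKM), had 2.41 times the median H3ac of the 6845 genes listed below 0.1 FPKM. The rank correlation (Spearman) of H3ac with RNA was 0.466 over all 29344 genes. It was 0.310 over the 22499 genes of at least 0.1 FPKM and 0.244 over the 19027 genes with a peak. The relation was thus weaker once genes listed near 0 were set aside. The rank correlation of H3ac RPKM with gene length was near 0 (0.022), but length was not even over the H3ac deciles. Median length was 1272.5 bp in the lowest decile, 2319 bp in the seventh and 1587 bp in the highest.

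**Figure D1:**
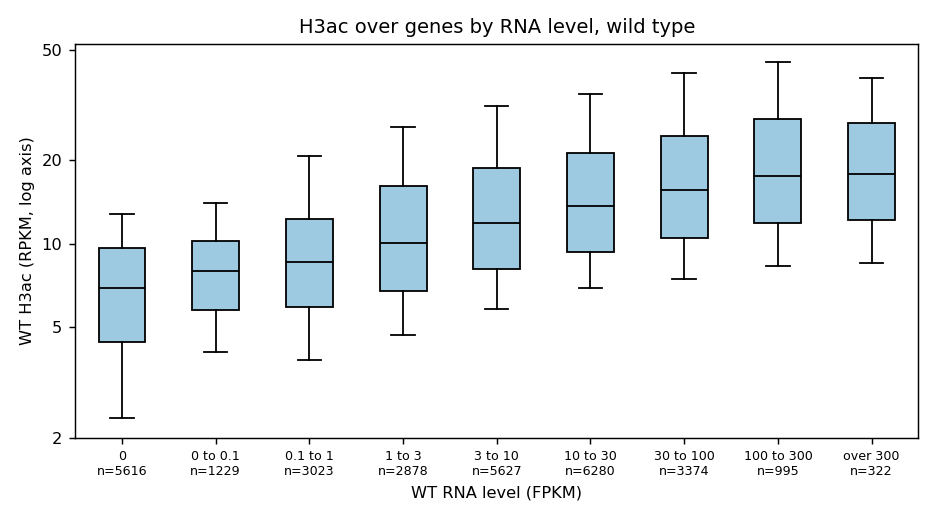
WT H3ac (RPKM, log axis) for genes grouped by WT RNA (FPKM), with the number of genes under each box. Boxes span the quartiles, the line is the median and whiskers reach the 10th and 90th percentiles; medians climb from 6.94 at 0 FPKM to 17.8 above 300 FPKM, and the boxes of neighbouring classes overlap.

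Peaks gave the same picture in another form. A WT peak overlapped 19027 genes, 64.8% of all, and these had a median of 14.2 RPKM against 6.30 for genes without one. The share of genes with a peak went from 16.2% at 0 FPKM to 91.6% above 300 FPKM. Still, 1410 of the 6845 genes listed below 0.1 FPKM, 20.6%, overlapped a peak. Some of the peaks counted here may have been called in hda6 only.

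The peaks lay inside genes, just after the start. Of the 24597 peaks 92.5% overlapped a gene by at least 1 bp (exact binomial interval 92.2% to 92.8%, which takes peaks as independent and covers no replicate spread). The median peak centre was 369 bp downstream of the nearest gene start, with quartiles of 203 and 755 bp. Centres were within 500 bp downstream in 47.7% of peaks and within 500 bp upstream in 3.33%. Strong peaks were placed more tightly. In the strongest 25% by the WT concentration, a log2 read level the authors computed per peak, 63.6% of centres lay within 500 bp downstream and 1.02% of peaks were outside genes. In the weakest 25% those shares were 28.1% and 22.0%. The values used do not tell which weak regions were called as peaks in WT. The region over QQS, for example, had a WT concentration of 0.73. The peak list made with sant1234-null held a matching WT peak within 200 bp for 22117 of the WT peaks, with a rank correlation of 0.997. Both lists rest on the same WT ChIP samples, so the match is not an independent check.

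**Figure D2:**
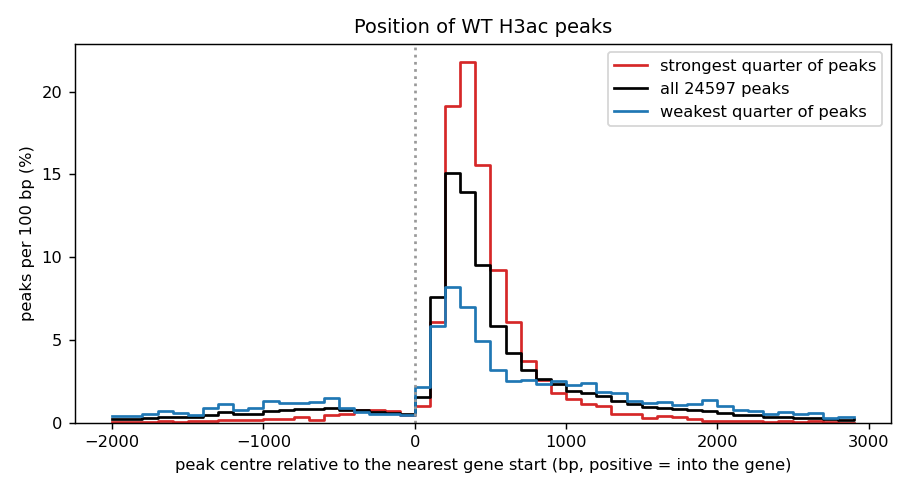
Position of WT H3ac peak centres relative to the nearest gene start (bp, positive into the gene) as the percent of peaks per 100 bp bin, for all 24597 peaks and for the strongest and weakest 25% by WT concentration. All 3 curves are highest 200 to 400 bp after the start, where the strongest 25% reach 21.8% in 1 bin.

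Of the 10 strongest peaks 8 lay in named or annotated genes. The top one, at 12.28, lay at chr3:14201494-14201894 in a block of ribosomal RNA genes, and the fourth, at 10.90, lay before another ribosomal RNA gene, AT2G01010. The second, at 11.15, was in AT3G13440, which encodes a methyltransferase, and the third, at 11, in AT3G09030, a BTB/POZ protein. The others were in PYL4, ASIL2, RDUF2, RAP2-4, ADT5 and SAP6, with concentrations of 10.76 to 10.87. Apart from the ribosomal RNA genes and AT3G13440, which has 3 exons, and SAP6, which has 2, the genes under these peaks had 1 exon.

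Sorted by RPKM alone, the top of the list was held by ribosomal RNA genes and the genes beside or over them, which are repeated in the genome. AT3G06355, MIR5642a and the ribosomal RNA gene AT3G41768, side by side on chromosome 3, had 5857, 5846 and 5197 RPKM. AT2G01010 had 3287 RPKM. AT2G08986, with 997 RPKM, and AT1G40104, with 413, were listed at 0 FPKM, and copies elsewhere covered 36.2% and 9.92% of them. Repeats within a gene were not counted, so these shares do not tell how repeated the 2 genes are. None of the 10 highest overlapped a WT peak. Among the 2935 genes of the highest decile (10% of genes by the rule), 77 had no peak. In 42 of these 77 (54.5%), at least 50% of the gene was covered by other stretches of the genome at 95% identity or more, 12 of them by plastid or mitochondrial sequence. Among the 2858 with a peak the share was 1.19%. How reads from such copies were placed is not given in the sources used here. Values of repeated genes are therefore uncertain, and no input was subtracted from them. Plastid genes themselves, which are not wrapped on histones, had a median of 142 RPKM over 133 genes and no peak.

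Among genes of at least 1 kb with a peak, a choice made after seeing the data, the highest H3ac lay on AT1G04647, a long non-coding RNA gene with 170 RPKM, and AT1G08315, an ARM repeat protein gene that had 157 RPKM. Each overlaps another gene, and the 25 highest held 4 long non-coding RNA genes. AT3G09030 had 156 RPKM with 12.2 FPKM of RNA. ERF4, an ethylene-responsive transcriptional repressor, had 136 RPKM (interval 133 to 138) and 65.6 FPKM. RGA, a DELLA repressor of gibberellin responses, also had 136 RPKM, with 43.1 FPKM. PYL4, an abscisic acid receptor, had 132 RPKM and 142 FPKM. These 4 genes were far apart in RNA and close in H3ac. RDUF2, a RING ubiquitin ligase, had 130 RPKM and 34.9 FPKM. The U-box ubiquitin ligase genes PUB41, PUB39 and PUB27 had 127, 119 and 114 RPKM with RNA levels of 12.1, 6.05 and 13.6 FPKM. LRX3, a leucine-rich repeat extensin of the cell wall, had 124 RPKM and 179 FPKM. The transcription factor genes RAP2-4 and MYB73 had 115 and 113 RPKM. The group also held the ring-finger gene ATL6 at 117 RPKM and the zinc-finger gene SAP6 at 113.

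In hda6 and sant1234-null the same genes had lower values. ERF4 had 93.3 RPKM in hda6 and 89.1 in sant1234-null, RGA 94.7 and 98.7, and PYL4 105 and 91.4. All 25 highest genes with a peak were lower in both mutants, but they were chosen for a high WT value and both comparisons share the WT samples, so the count is not a result about them. Over all genes the 99th percentile was also lower, at 54.4 RPKM in hda6 and 57.3 in sant1234-null against 75.9 in WT. In rank the order was largely kept. Of the WT highest decile, 85.9% was in the highest decile of hda6 and 79.3% in that of sant1234-null, and of the lowest decile 80.7% and 80.1%.

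Many of the genes with most H3ac had a single exon. In the highest decile 47.4% of genes had 1 exon, against 16.2% to 23.7% in the other deciles, and 23 of the 25 highest genes with a peak had 1 exon. The contrast was then drawn within protein-coding genes of 1000 to 2000 bp and 10 to 30 FPKM, to bring length and RNA closer. The 321 single-exon genes had a median of 38.6 RPKM (quartiles 23.1 and 56.4), and 66.4% of them were in the highest decile. The 356 genes of 2 exons had 19.7, the 527 of 3 or 4 exons 15.4, and the 337 of 5 or more exons 14.3 RPKM, with 8.01% in the highest decile. Median RNA in these groups was 16.8, 16.2, 16.9 and 17.8 FPKM. Median lengths still rose with exon number, at 1415, 1489, 1637 and 1781 bp, and RPKM is divided by length. Another gene overlapped 23.1% of the single-exon genes and 40.7% of those of 5 or more exons.

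Peak position followed the same order, and peak strength set mainly the single-exon genes apart. The strongest peak of a gene had a median log2 concentration of 8.70 at 1 exon, 7.55 at 2, 7.165 at 3 or 4 and 7.22 at 5 or more. Its centre lay 504 bp after the gene start at 1 exon, 438.5 bp at 2 exons, 357 bp at 3 or 4 and 252.5 bp at 5 or more. The same order of RPKM stood in hda6, with 29.4 RPKM at 1 exon and 13.7 at 5 or more. In sant1234-null it stood at 32.3 and 14.3. These are medians over genes with no test, and exon number may go with other gene properties that were not tested.

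**Figure D3:**
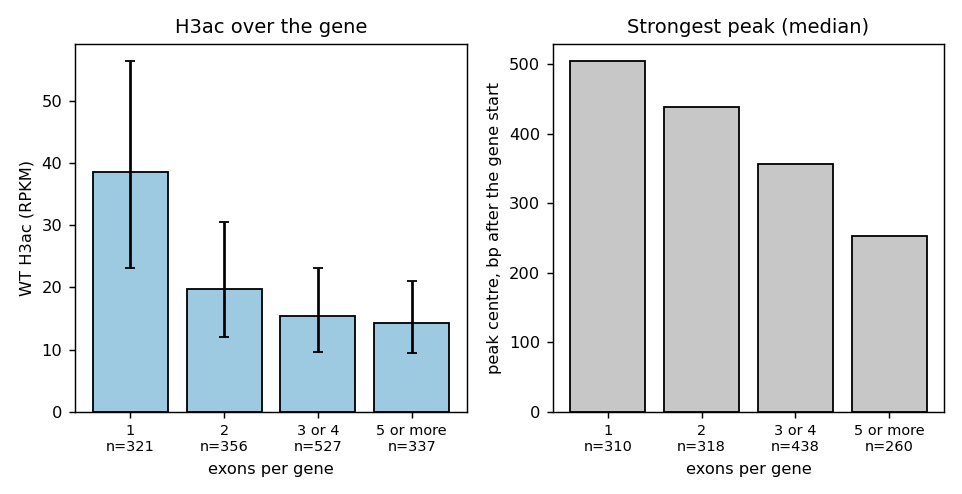
Protein-coding genes of 1000 to 2000 bp and 10 to 30 FPKM, by exon number. Left, median WT H3ac (RPKM) with quartiles as bars, highest at 38.6 RPKM for 1 exon; right, median distance of the strongest peak's centre from the gene start (bp), 504 bp at 1 exon and 252.5 bp at 5 or more.

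Gene families grouped by the letters of their symbol, 139 with 15 or more members, ranged widely in H3ac, and single-exon families stood at both ends. TCP transcription factors, which control leaf and shoot growth, had a median H3ac percentile of 92.1 over 22 genes, with 12 in the highest decile. The 19 PRA1 genes, which act in vesicle traffic, had 93.2. The 80 ERF genes, ethylene-response transcription factors, had 87.4 with 33 in the highest decile, and 65 of the 80 had 1 exon. The ribosomal protein families RPL and RPS, with few single-exon members, had 81.7 over 138 genes, 13 of them with 1 exon, and 78.9 over 115, 9 of them with 1 exon. The other end held families of small secreted peptides but also others, such as the 17 SWEET genes at 9.85 and the 34 TPS genes at 11.5. The 72 LCR genes, cysteine-rich peptides, had a median percentile of 2.48, and 65 were in the lowest decile. Self-incompatibility protein homologues (SPH, 24 genes) had 9.65 with 23 single-exon members, and the 38 microRNA genes, all of 1 exon, 10.4.

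The lists of known genes were read the same way, as medians of percentile over all genes, where 50 is the middle. The RNA of tissue lists gives a check of the labelled tissue. Photosynthesis genes stood at a median RNA percentile of 99.9. The 5 root genes, which act in iron uptake and root hairs, stood at 55.3. Floral organ genes stood at 25.4 and seed maturation genes at 19.4.

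Genes known for rapid induction by touch, cold or wounding carried the highest H3ac of all 14 lists. Their median H3ac percentile was 91.1 over 24 genes against 74.9 for RNA, and 14 of 24 were in the highest decile. ERF4, above, was its highest member. The zinc-finger repressor genes ZAT10, ZAT12 and ZAT6 had 83.4, 79.0 and 61.8 RPKM with 84.1, 31.2 and 22.6 FPKM. JAZ1, a repressor of jasmonate responses, had 65.9 RPKM and 38.6 FPKM, and JAZ5 44.7 RPKM with only 4.01 FPKM. The cold-response factors lay in 1 cluster on chromosome 4 and differed. CBF2 had 73.6 RPKM and 14.5 FPKM, CBF1 38.4 RPKM and 1.83 FPKM, and CBF3 23.1 RPKM and 0.487 FPKM. The lowest of the list was JAZ8, at 8.16 RPKM and 1.06 FPKM. The list held 10 single-exon genes. The 13 heat shock genes, with a median of 3.56 FPKM, stood at the 62.5th percentile and none was in the highest decile.

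Histone genes ranked high in both H3ac and RNA, whereas photosynthesis genes ranked far lower in H3ac than in RNA. The 8 histone H4 genes had a median percentile of 88.6 for H3ac and 90.6 for RNA, with 23.3 to 52.3 RPKM. The 8 H3 genes ranged from 15.6 to 66.8 RPKM, the highest being the H3.3 gene at AT5G10980. How alike the histone genes are in DNA sequence is not given here, so single values are uncertain. The same holds for the RBCS and LHCB genes among the photosynthesis genes. The 30 nuclear photosynthesis genes held the most RNA of all lists, from 591 to 6857 FPKM. Their H3ac was ordinary, from 9.17 to 24.6 RPKM with a median percentile of 64.0 and none in the highest decile. RBCS1A, a small subunit of Rubisco, had 17.35 RPKM and 6123 FPKM. LHCB5, a light-harvesting protein, had 9.17 RPKM and 4977 FPKM, and PSBR, with the highest RNA of all genes described, 24.3 RPKM. UBQ10, a polyubiquitin reference gene, was higher, with 54.3 RPKM for 838 FPKM, and the reference genes as a list stood at 69.8.

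Polycomb targets and floral organ genes had the least. The 12 floral genes had 1.48 to 8.29 RPKM, a median percentile of 3.78, and 11 of 12 were in the lowest 25%. AGAMOUS (AG) had 1.74 RPKM, AP1 2.04 and STK 1.48. SEP3, at 2.27 RPKM, was listed at 3.68 FPKM all the same. Of 10 Polycomb targets 8 were in the lowest 25%. The florigen gene FT had 2.15 RPKM, the floral repressor FLC 4.71 and the meristem gene STM 4.59. Of the seed maturation genes 9 of 17 were listed below 0.1 FPKM, but their H3ac lay near the middle, at the 42.8th percentile. The storage protein genes CRA1, CRB and CRC had 9.38, 8.70 and 9.71 RPKM, while their regulators LEC1, LEC2 and FUS3 had 4.03, 3.46 and 3.86.

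The clock genes differed among themselves. ELF4, a single-exon gene, had 33.9 RPKM and LUX 26.6, whereas CCA1 had 6.20 and PRR7 6.88, the latter with 36.8 FPKM of RNA. The list of histone acetyltransferase and deacetylase genes had a median percentile of 78.4 over 8 genes. HDA6 had 20.4 RPKM and 17.0 FPKM, HDA19 17.8 RPKM and 55.1 FPKM, and HDA9 only 7.59 RPKM. The acetyltransferase genes HAM2, HAM1 and HAG1 had 26.8, 20.7 and 20.7 RPKM, while HAC1 had 10.7 and HAF2 10.08. Of the genes known for silencing by DNA methylation, FWA and SDC were listed at 0 FPKM with 6.38 and 7.74 RPKM, and QQS at 4.08 FPKM with 5.21 RPKM.

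**Figure D4:**
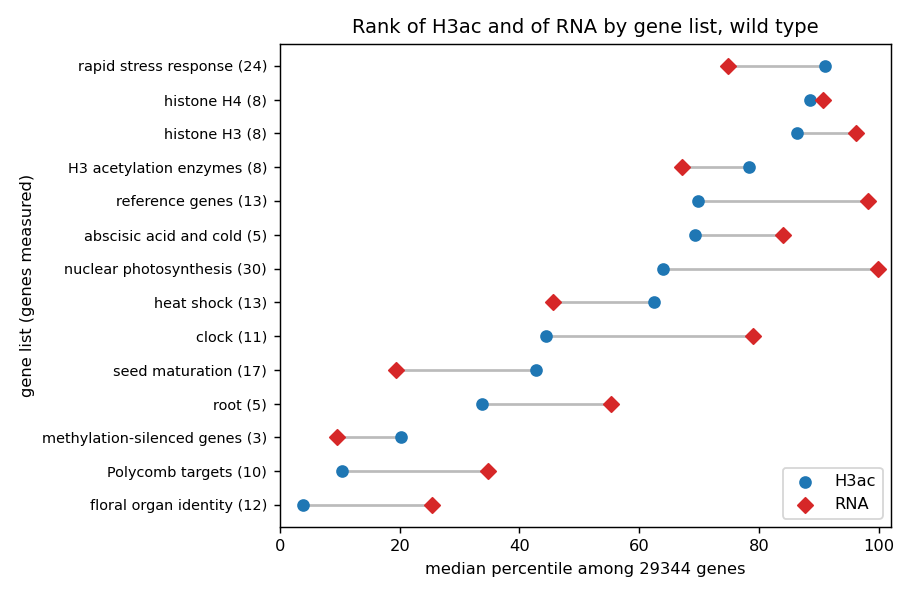
Median percentile of WT H3ac (circles) and WT RNA (diamonds) among all 29344 genes for 14 gene lists, with the number of genes measured. Rapid stress response genes stand at 91.1 for H3ac and 74.9 for RNA, photosynthesis genes at 64.0 and 99.9, and floral organ genes at 3.78 and 25.4.

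Genes with most H3ac were more often rich in RNA than other genes, though most were not. Of the 2935 genes in the highest H3ac decile, 626 (21.3%) were also in the highest RNA decile (at least 47.6 FPKM). The exact binomial interval, 19.9% to 22.9%, takes genes as independent, which they are not, and covers no replicate spread. By construction 10% of all genes are in that RNA decile, and the share went from 2.04% in the lowest H3ac decile through 7.60% in the fifth.

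A class of 117 genes had H3ac in the highest decile and RNA listed below 0.1 FPKM. Since H3ac and RNA chose them, their values are descriptions. The nearest genes across the limits were AT2G42150 inside, at 0.0947 FPKM, and AT1G31243 outside, at 0.104 FPKM. On the H3ac side AT2G01045 lay just inside, at 29.5 RPKM, and AT2G07722 just outside, at 29.3 RPKM. The genes were short, with a median of 560 bp against 1992 bp for all, and 75 of 117 (64.1%) overlapped another gene, against 30.1% of all genes. In 35 the overlapping gene had at least 10 FPKM, against 3729 of all 29344 genes. A gene of at least 10 FPKM overlapped or lay within 500 bp in 39.3%, near the 35.9% of all genes. ChIP reads of overlapping genes cannot be told apart. Long non-coding RNA genes made up 44 of the 117, against 2124 of all 29344. Of the 33 with no peak, 24 had copies elsewhere over at least 50% of their length, against 4 of the 84 with a peak.

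The 3 highest, AT2G08986, AT2G07981 and AT1G40104, had 997, 422 and 413 RPKM, overlapped no other gene and had no peak. Copies elsewhere covered 36.2%, 82.6% and 9.92% of them, with repeats inside the gene not counted. Genes with a peak followed. AT3G18915 had 175 RPKM and 0.0680 FPKM and overlaps a gene of 11.6 FPKM. AT1G72755, at 153 RPKM, overlaps one of 68.2 FPKM, and AT4G09035, at 120 RPKM, one of 126 FPKM. Only 9 of the 117 had a peak and no other gene within 500 bp. Of these the long non-coding RNA gene AT1G07027 stood out, with 115 RPKM, a peak of 9.31 and an RNA value of 0. It had 126 RPKM in hda6 and 105 in sant1234-null. AT5G65130, which encodes a DNA-binding protein of the AP2/ERF type, had 39.6 RPKM over 1165 bp and 0.0819 FPKM of RNA. The non-coding genes AT5G05465, AT3G03165, AT2G05555 and AT2G06365 had 53.9, 42.1, 39.8 and 33.7 RPKM, and 89.9% of AT2G05555 is copied elsewhere in the genome. AT1G79170, AT5G36280 and AT2G01045, annotated as coding, had 37.9, 35.7 and 29.5 RPKM, and AT2G01045 is copied elsewhere over 100% of its length.

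The opposite class held 193 genes in the lowest 25% of H3ac (7.12 RPKM or less) and the highest RNA decile. Just outside it lay ABIL4, at 7.14 RPKM. TGG1 and TGG2, the myrosinases that cut glucosinolates, had 5.55 and 5.60 RPKM with 1988 and 767 FPKM. BGLU23, a beta-glucosidase of endoplasmic reticulum bodies, had 6.24 RPKM and 1642 FPKM. PSBS, a photosystem II protein of photoprotection, had 6.94 RPKM and 886 FPKM. The metallothionein gene MT1C had 5.32 RPKM and 833 FPKM, the copper chaperone gene CCH 6.34 and 676, and BCA2, a carbonic anhydrase gene, 3.297 and 624. Lower still was RCI2A, a cold-induced membrane protein gene, with 152 reads, 1.52 RPKM and 458 FPKM, although it overlaps a gene of 41.7 FPKM.

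By symbol, some small families had most of their RNA-rich members in this class and others few. Of 7 RNA-rich BGLU genes 6 were in it, as were both RNA-rich TGG genes, both RCI2 genes and both sucrose transporter genes SWEET11 and SWEET12. It held 3 of 5 RNA-rich GASA genes, which encode gibberellin-regulated peptides, and the cell wall genes XTH4 and XTH9 of 11 RNA-rich XTH genes. Of the RNA-rich calmodulin (CAM) genes 2 of 7 were in it, and of the peroxidase (PER) genes 2 of 17. These families were picked after their counts were seen, and the class holds 193 of 2935 RNA-rich genes. Of the 193, 62 had a peak, 32.1% against 90.7% of all 2935 RNA-rich genes. They were chosen for low H3ac in the same ChIP samples, so a share below that of all RNA-rich genes follows from the choice. Over genes of any RNA level, 3.72%, 18.0% and 38.5% had a peak in H3ac deciles 1, 2 and 3. Only 6 of the 193, 3.11%, had 1 exon, against 11.1% of all RNA-rich genes, which were not chosen for H3ac. In H3ac deciles 1, 2 and 3 the single-exon shares were 23.7%, 16.2% and 16.5%. Length was not where the 193 differed from all RNA-rich genes: the median was 2018 bp against 2009 bp. Of the 193, 186 were also in the lowest 25% among genes of like length. In the mutants they were low too, with 171 in the lowest 25% in hda6 and 164 in sant1234-null. Near-identical copies covered at least 50% of 2 of the 193 genes. One of them was AT3G22235, a stress tolerance gene with 5.79 RPKM and 856 FPKM.

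**Figure D5:**
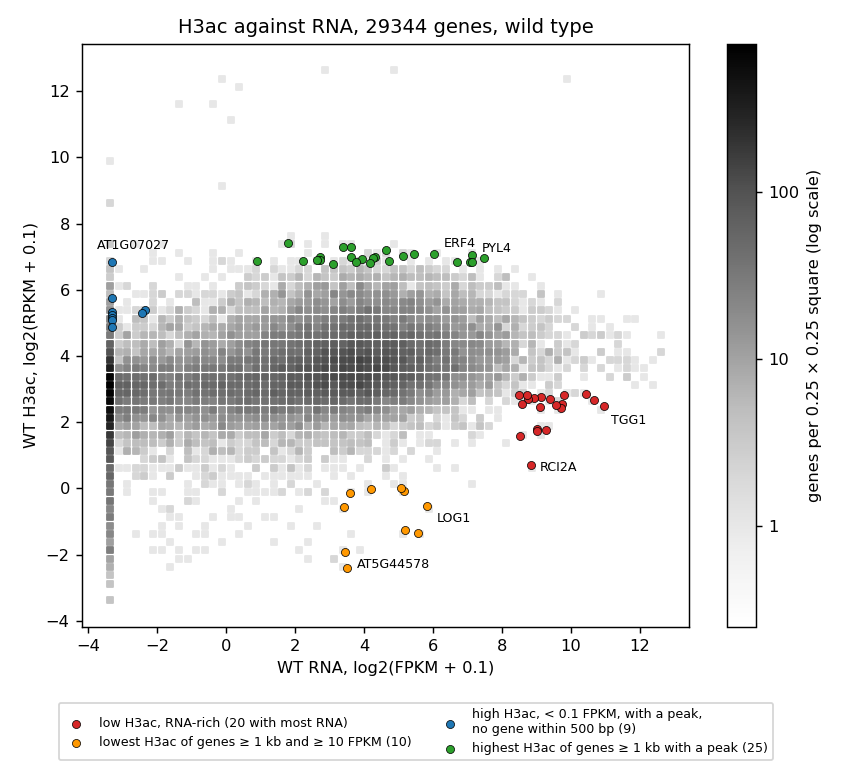
WT H3ac, log2(RPKM + 0.1), against WT RNA, log2(FPKM + 0.1), for 29344 genes; the grey scale gives genes per square and coloured points are the named genes of 4 classes. The RNA-rich genes of low H3ac (red) lie at the right below the bulk, and AT5G44578, with 9 reads, lies lowest among genes of at least 1 kb and 10 FPKM (orange).

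The least acetylated genes with at least 10 FPKM had between 9 and 269 reads. Among genes of at least 1 kb and 10 FPKM, AT5G44578 had 9 reads over 1472 bp, 0.0872 RPKM (interval 0.0399 to 0.166), with 11.1 FPKM of RNA. AT5G35480 had 20 reads and 0.163 RPKM with 10.7 FPKM. PSK6, annotated as a phytosulfokine precursor, had 27 reads, 0.292 RPKM and 47.2 FPKM. LOG1, a cytokinin-activating enzyme gene, had 153 reads over 3656 bp, 0.597 RPKM, and 57.0 FPKM, the only RNA-rich gene of the 10. The serine carboxypeptidase-like genes SCPL13 and SCPL12 had 0.843 and 0.880 RPKM with 35.7 and 18.1 FPKM. OXS3, an oxidative stress gene, had 0.905 RPKM and 33.8 FPKM. The others were AT3G25930, PIT1 and RTNLB14, at 0.315, 0.575 and 0.816 RPKM.

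In the mutant ChIP tables these 10 were again near the bottom, at or below the 3.23rd percentile in hda6 and the 3.62nd in sant1234-null. AT5G44578 had 40 reads in hda6 and 38 in sant1234-null, and PSK6 104 and 89. All 10 had more H3ac in both mutants than in WT, but they were chosen for a low WT value. Over all genes the 1st percentile was also higher, at 2.21 RPKM in hda6 and 1.84 in sant1234-null against 0.874 in WT. Only 4 genes had 0 WT reads, AT1G06757, AT2G08975, AT3G06785 and the peptide gene LCR52. All were at most 422 bp long and listed at 0 FPKM, and the exact upper limits for 0 reads were 0.125 to 0.162 RPKM.

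Families also parted H3ac from RNA. The 42 BGLU genes had a median percentile of 13.4 for H3ac and 54.0 for RNA, the 44 UMAMIT amino acid transporter genes 11.3 and 52.2, and the 50 SCPL genes 13.7 and 48.7. The 23 ARR genes, response regulators of cytokinin signalling, had 11.4 and 51.3. Lipid transfer proteins (LTP, 15 genes) had 24.6 and 83.4, the widest gap of the 139 families, and the 32 XTH genes 33.7 and 83.3. On the other side stood ERF with 87.4 and 47.6, VQ regulators with 78.2 and 42.8, lectin receptor kinases (LECRK, 33 genes) with 67.4 and 33.5, and UGT glycosyltransferases (105 genes) with 76.5 and 48.6. Families here share letters of a symbol only.

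Neighbouring genes were weakly alike in H3ac. Over 22593 adjacent pairs that do not overlap, the rank correlation of H3ac was 0.192 and that of RNA 0.174. It was 0.234 for 13018 tandem pairs, 0.133 for 5489 divergent pairs and 0.141 for 4086 convergent pairs. It was 0.160 among 8677 pairs under 500 bp apart and 0.171 among 5487 pairs at least 2000 bp apart.

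Last, the WT H3ac level was set beside the RNA changes in the mutants, as called in the authors' deposited tables (adjusted p under 0.05). Over all tested genes, 4.85% were higher and 6.47% lower in mbd124. In the highest WT H3ac decile those shares were 10.3% and 11.3%, in the fifth decile 3.40% and 5.11%, and in the lowest decile 2.97% and 8.42%. Genes lower in hhp1 were 3.17% of all tested and 6.93% of the highest decile. For sant1234-null the shares of lower genes were 5.96% and 10.4%, and of higher genes 9.41% and 11.01%. In hda6 higher genes were 7.29% of all tested and 9.55% of the highest decile, and lower genes 4.82% and 5.84%. Genes higher in hhp1 were 2.91% of all tested and 2.59% of the highest decile. The low end was raised too in places. Genes lower in hda6 were 7.95% of the lowest decile, above the share in the highest. Genes higher in sant1234-null were 12.4% of the second decile, and genes higher in hhp1 5.12% of it, both above the highest decile. The 4 comparisons share the WT RNA samples.

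The lower calls in the highest decile lay largely in single-exon genes. In mbd124 209 of 1285 of them (16.3%) were lower, against 101 of 1462 (6.91%) of the genes with more exons. In sant1234-null the shares were 14.8% and 6.49%, in hhp1 10.5% and 3.77%, and in hda6 8.42% and 3.56%. Over single-exon genes of any H3ac level they were 12.5%, 11.3%, 7.35% and 6.96%. Among the low-H3ac RNA-rich genes 34 of 193 were lower in mbd124 (17.62%), against 13.9% of all RNA-rich genes, in hda6 12.4% against 8.28%, in sant1234-null 15.03% against 13.7% and in hhp1 9.33% against 7.90%. Higher in hhp1 were 8.29% of them against 2.59% of all RNA-rich genes. None of these differences in share was tested.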

How the data were processed

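RNA-seq and H3ac ChIP-seq of WT seedlings were read from tables holding 1 value per genotype. The tools listed, without roles, were MACS2 2.1.1.20160309, DiffBind and bedtools beside Bowtie2 2.4.1, and Cuffdiff and Cufflinks 2.2.1 beside TopHat2 2.0.12 and CASAVA, on TAIR10, per the submitters' processing notes. The deposited ChIP tables give a read count per gene, pooled over replicates by the authors, and the authors' RPKM, which equals the count over gene length and mapped reads. No input was subtracted from them. The deposited RNA tables give the authors' FPKM and a q-value (adjusted p) in the layout of Cuffdiff, per the file headers. The deposited peak tables give the authors' WT concentration on a log2 scale in the layout of DiffBind, and peaks with a WT value of 0 were not counted as WT peaks. Each list covers a mutant and WT together, so a peak counted for WT may have been called in the mutant only. Settings, strand use and the placing of reads with several matches were not given in the sources used here, and overlapping genes and near-identical copies are therefore uncertain. RNA depth is unknown, and a value of 0 FPKM can be a failed estimate.

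H3ac and RNA were ranked over all genes kept, with the WT RNA value of the hda6 table. Exon numbers, gene products and sequences came from RefSeq TAIR10.1, and coordinates are 1-based. Copies were found with megablast (BLAST 2.17.0), and matches that met the gene's own span were left out. Values were computed with Python 3.11.15, pandas 2.3.3 and scipy 1.17.1, and the measures were tested on simulated data. Intervals are exact Poisson or exact binomial at 95%. The binomial ones take genes or peaks as independent and serve as a set tolerance, not as a measure of replicate error. Named genes were the 10 highest in H3ac overall and among genes of 1000 bp or more, the 10 highest of the class with RNA below 0.1 FPKM and of those with no gene within 500 bp, the 10 RNA-rich low-H3ac genes with most RNA, the 10 strongest peaks, the 10 lowest in H3ac with at least 10 FPKM and the members of 14 lists. After the data were seen, the 25 highest with a peak, the 20 RNA-rich low-H3ac genes with most RNA, genes at the class limits, the exon groups, the families and 5 alternatives were added. The members and lists were chosen with earlier results of these data known. No column of per-sample values was left unused (0). Tables of transposable elements were not used here. The upstream sequence of 1 gene is not reported here.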

Additional observations from a re-analysis of the deposited data

How the results depend on the processing

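Alternatives were run for 10 results: the correlation, the ratio of medians, 2 class counts, 2 shares and the 4 ratios of mutant calls. Of 80 alternatives 57 left the value within the set tolerance (0.05 for a correlation, the exact interval for a share, 1.5 times for a ratio or count). A reversed direction could be found only for the rank correlation, and none of its 13 alternatives had one. Alternatives with the WT RNA value of another mutant's table rest on the same WT RNA samples, so they could change little. The rank correlation of 0.466 became 0.412 with no length minimum, 0.609 with read counts not divided by length, 0.401 with H3ac ranked within 20 length bins, 0.585 with the highest peak concentration and 0.310 over genes of at least 0.1 FPKM. The 2.41-fold ratio of medians became 4.95 with read counts; with peak concentrations no ratio could be had, since most genes listed below 0.1 FPKM have no peak. The 117 genes of high H3ac listed below 0.1 FPKM became 454 with no length minimum, 33 at 1000 bp or more, 18 among genes with no other gene within 500 bp, 41 by read count, 37 by peak concentration, 278 with RNA below 1 FPKM, 57 in the top 5%, and, as an alternative added after seeing the data, 9 with a peak and no gene within 500 bp. The 193 genes of low H3ac and abundant RNA became 50 among genes with no other gene within 500 bp and 60 in the lowest 10%. The 21.3% of high-H3ac genes that were RNA-rich became 27.1% among genes with no other gene within 500 bp, 17.3% by read count, 19.5% within length bins and 19.1% by peak concentration. Peaks in genes, 92.5%, became 92.0% with at least 50% of the peak in genes, 95.2% in the sant1234-null list and 98.4% above the median concentration. Genes of the highest decile were called in hda6, in either direction, 1.27 times as often as all tested genes, and 1.08 times with single-exon genes left out, an alternative added after seeing the data; for mbd124 these were 1.91 and 1.76. The cause of these shifts was not tested. No paired analysis was possible because the tables hold 1 value per genotype, and leaving out replicates in turn was not possible for the same reason. Counts of reads limit only genes near 0 reads; the depth of the RNA libraries is unknown. Exon groups, families, lists, motifs and neighbouring pairs had no alternative.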
